A study of Mus musculus with 6 samples.

Results

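The 10 mouse genes described here act in fatty acid binding, transport and activation, and their expression was compared in liver: the binding proteins Fabp1, Fabp2 and Fabp5, the transport proteins Slc27a1, Slc27a2 and Slc27a4, and the long-chain acyl-CoA synthetases Acsl1, Acsl3, Acsl4 and Acsl5. They were taken by symbol, through the Ensembl identifier, from a table of 54600 rows, and each of the 10 matched 1 row. All 6 liver libraries were from mice kept 16 weeks on high-fat food, 3 labelled wild type (WT) and 3 labelled KO, in which HIF-2α was to be deleted in hepatocytes alone. Epas1 encodes HIF-2α, a transcription factor subunit that is stabilised when oxygen is scarce. No group on another diet was part of the comparison, so it asks how these genes differed with the genotype label under this diet, in a study of HIF-2α in metabolic dysfunction-associated steatotic liver disease. The strain, age and sex of the mice and the driver of the deletion are not stated in the sources at hand. Since no label ties a library to its own animal, p-values measure only the spread between these libraries, which may be technical.

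Long-chain fatty acids are nearly insoluble in water and become usable only after a chain of handling steps. Membrane proteins of the SLC27 family (the FATPs) promote their entry into cells, small cytosolic binding proteins (FABPs) carry them, and acyl-CoA synthetases (ACSLs) couple them to coenzyme A, which commits them to oxidation, storage as triglyceride or membrane synthesis. In hepatocytes many of these genes are classical targets of the fatty acid-activated nuclear receptor PPARα.

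No difference between the labels passed the test for any of the 10 genes. Expression is given as TPM, a length-corrected share of each library, so levels can be compared between genes, but sequencing depth is unknown. All 10 passed the filter of at least 1 TPM in at least 3 libraries and were tested with limma on log2(TPM + 1) among 11440 genes. At a Benjamini-Hochberg adjusted p below 0.05, 0 of the 10 were called and 0 had an unadjusted limma p below 0.05. Across all tested genes 0.00874% were called and 3.15% had an unadjusted p below 0.05, so the members' counts are read against a low background. The smallest adjusted limma p of a member was 0.993. Exact two-sided permutation tests gave p from 0.30 to 1.0 for the 10 genes, and 0.10 is the smallest that 3 libraries against 3 can give. No member had separate groups, against 9.08% of all tested genes, in either direction. The members' median difference (KO minus WT) was +0.09 on the log2(TPM + 1) scale, beside +0.09 for all tested genes, and 7 of 10 were above 0 beside 74.5%. Median-ratio scaling, which divides each library by the median ratio of its genes to a common reference, moved the median of all tested genes by -0.11, to -0.01, and that of the members to -0.02, with 5 of 10 above 0 beside 46.4%.

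The targeted gene, Epas1, was not lower under the KO label. Its difference was +0.34 on the log2(TPM + 1) scale and +0.23 under median-ratio scaling. With that scaling KO replicate 1 fell below WT replicate 2, so the groups overlapped. Before scaling, Epas1 gave 23.8, 26.0 and 21.0 TPM under the WT label and 26.6, 35.1 and 29.4 TPM under the KO label. These unscaled groups did not overlap, and the KO label was higher (limma adjusted p = 0.993). The value covers the whole gene and all liver cells, including those a hepatocyte deletion would leave intact, so the labels could not be checked from it and directions below are between libraries labelled KO and WT. Alb, the albumin made by hepatocytes, lay between 28784 and 48972 TPM. Adipocyte markers Adipoq, Lep and Retn and the intestinal markers Cdx1, Cdx2, Lct, Sis and Alpi were listed at 0 in all 6 libraries. In bulk tissue, fewer cells of a type and less RNA per cell cannot be told apart.

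The levels of the 10 genes spanned more than 3 orders of magnitude of TPM, and their order was nearly the same in both labels. Fabp1 led with a mean of 8114 TPM over the 6 libraries, followed by Slc27a2 at 643, Acsl1 at 299, Acsl5 at 166 and Fabp2 at 162. Fabp5 at 23.8, Acsl4 at 14.9, Acsl3 at 11.8, Slc27a4 at 8.48 and Slc27a1 at 1.98 TPM followed. Fabp1 and Slc27a2, Slc27a2 and Acsl1, Fabp2 and Fabp5, and Slc27a4 and Slc27a1 had ranges over the 6 libraries that did not overlap. The other neighbours overlapped: Acsl5 was above Fabp2 in 4 of 6 libraries, Fabp5 above Acsl4 in 3, Acsl4 above Acsl3 in 5 and Acsl3 above Slc27a4 in 4. Acsl1 and Acsl5 overlapped in range, but Acsl1 was the higher in all 6 libraries. One gene dominated 2 of the 3 roles: Fabp1 made up 97.4% to 98.1% of the TPM of its role, and Slc27a2 98.0% to 98.7%, whereas Acsl1 made up 55.3% to 64.5% of the summed synthetases.

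**Figure D1:**
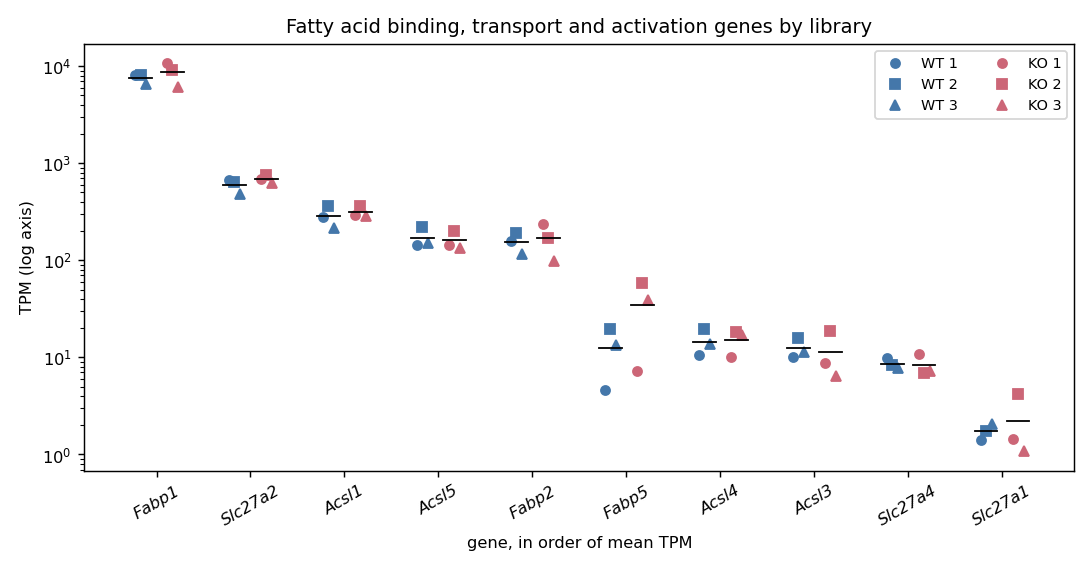
TPM of the 10 genes in each of the 6 libraries, on a log axis, with genes in order of mean TPM. Blue points are libraries labelled WT, red points those labelled KO, the shape gives the replicate number and black bars are group means. The groups overlap for every gene, from Fabp1 at 6100.1 to 10687 TPM down to Slc27a1 at 1.08 to 4.16 TPM.

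Fabp1 encodes the liver fatty acid binding protein, the main cytosolic carrier of fatty acids in hepatocytes. Replicates 1, 2 and 3 held 8159, 8067 and 6586 TPM under the WT label and 10687, 9086 and 6100.1 TPM under the KO label. Both the highest and the lowest of the 6 values were in libraries labelled KO, so the groups overlapped. Group means were 7604 ± 883 and 8624 ± 2328 TPM (SD, n = 3 each), and the log2 contrast was +0.15 ± 0.24 (SE) on log2(TPM + 1) with a 95% limma interval of -0.41 to +0.71. Fabp1 ranked between 16 and 29 among all rows in a library. Its gene (ENSMUSG00000054422) lies on chromosome 6, 71199827 to 71205023, plus strand (GRCm38, the build also called mm10).

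Fabp2, the intestinal fatty acid binding protein, is named for enterocytes and was well above the low members in these livers. Replicates 1, 2 and 3 held 158, 193 and 115 TPM under the WT label and 236, 170 and 98.3 TPM under the KO label. Highest and lowest were again both labelled KO. Fabp2 (ENSMUSG00000023057) lies on chromosome 3, 122895072 to 122899506, plus strand. The difference was +0.05 ± 0.33 (SE) on the log2 scale, with a limma interval of -0.72 to +0.82, and it turned to -0.07 under median-ratio scaling. The summed TPM of the 6 intestinal epithelium markers was at most 0.165 in any library, with 5 of the 6 at 0. Fabp1 and Fabp2 were both lowest in replicate 3 of each label.

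The promoters of these genes are shown because Fabp1 and Fabp2 belong to one family but differ in level by a large factor. Sequences come from RefSeq (GRCm38.p6), read 5′ to 3′, and cover the 250 bases before the RefSeq start site, shortened where GENCODE M21 annotates an exon. Of the 10 members, 9 had a window there and Fabp5 did not. Capitals mark matches to a direct repeat of AGGTCA with 1 base between the copies, the DR1 class of element to which PPARα binds, with at most 2 mismatches on either strand, or to a hypoxia response core (ACGTG or GCGTG on either strand).
Fabp1 (chr6:71199629-71199826, plus strand): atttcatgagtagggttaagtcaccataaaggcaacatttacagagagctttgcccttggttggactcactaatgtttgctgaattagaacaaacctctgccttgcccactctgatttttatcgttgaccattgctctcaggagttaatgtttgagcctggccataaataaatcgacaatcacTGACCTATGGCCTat
Fabp2 (chr3:122894822-122895071, plus strand): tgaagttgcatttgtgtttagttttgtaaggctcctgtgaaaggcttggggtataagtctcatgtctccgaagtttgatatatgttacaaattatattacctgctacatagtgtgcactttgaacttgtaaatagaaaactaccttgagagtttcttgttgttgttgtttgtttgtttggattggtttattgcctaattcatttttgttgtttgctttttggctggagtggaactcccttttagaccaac

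Among the 9, Fabp1 alone had a DR1 match, TGACCTATGGCCT, which began 67 bases before the RefSeq start. Of 32851 promoter windows of the same length, 3.24% held such a match. A TATAAA match began 30 bases before that start, inside a GENCODE exon, and 7.59% of windows held one on the plus strand. Fabp2 had neither. A match is a description of the letters in the window and not evidence of binding.

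Fabp5, the epidermal fatty acid binding protein, which is also made by macrophages and endothelial cells, varied most among the 10 genes. Replicates 1, 2 and 3 held 4.58, 19.7 and 13.4 TPM under the WT label and 7.31, 58.8 and 39.0 TPM under the KO label. Replicates 2 and 3 labelled KO lay above every library labelled WT, and replicate 1 labelled KO lay within their range, so the groups overlapped. The range of log2(TPM + 1) over the 6 libraries was 3.42, and 0.428% of tested genes had a wider one. Group means were 12.6 ± 7.61 and 35.0 ± 25.9 TPM (SD, n = 3 each), at a ratio of 2.79. On the log2(TPM + 1) scale the difference was +1.19 ± 0.77 (SE), with a 95% limma interval of -0.61 to +2.99 and an unadjusted limma p of 0.163 (adjusted 0.993).

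Within same-numbered libraries, Fabp5 was 1.60, 2.98 and 2.92 times as high in the library labelled KO for replicates 1, 2 and 3. With the replicate number as a block, which treats same-numbered libraries as pairs, the standard error was 0.21, the limma interval +0.67 to +1.72 and the unadjusted limma p 0.0018. It was not called there either (limma adjusted p = 0.724). It was the one member with an unadjusted p below 0.05 under the block, beside 6.18% of all tested genes. With the block and median-ratio scaling the difference was +1.08 and the unadjusted limma p 0.0021 (adjusted 0.944), beside 4.51% of tested genes. The size rested on single libraries: without KO replicate 1 the difference was +2.04, without WT replicate 1 it was +0.65 and without KO replicate 2 it was +0.62.

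Markers of other liver cells were set beside Fabp5, and their part in its levels was not tested. The summed TPM of 7 Kupffer cell and macrophage markers was 228, 203 and 160 under the WT label and 215, 203 and 197 under the KO label. Its highest value was in WT replicate 1, where Fabp5 was lowest. The 5 endothelial markers summed to 81.0 to 88.3 TPM (WT) and 84.0 to 93.3 TPM (KO), highest in replicate 2 of each label, as was Fabp5. Their sum was lowest in replicate 3 of each label, whereas Fabp5 was lowest in replicate 1 of each. The 5 cholangiocyte markers summed to 24.9 to 35.3 TPM (WT) and 34.9 to 56.2 TPM (KO), and the 5 stellate cell markers to 105 to 127 and 122 to 147 TPM. Spp1 held most of the cholangiocyte sum, from 22.1 to 52.8 TPM. No tested marker of these lists was called by limma, with 2 of 5 cholangiocyte and 4 of 5 stellate cell markers tested. Of tested markers, 1 of 5 endothelial and 1 of 2 cholangiocyte had an unadjusted limma p below 0.05, beside 3.15% of all tested genes. The 4 adipocyte markers summed to at most 0.018 TPM and were too low to be tested. Processed pseudogenes of Fabp5, 5 in number, match the Fabp5 transcript at over 90% identity across at least 300 bases, the closest being Gm6166 at 98.3%, and all 5 were listed at 0 in every library. The treatment of reads shared with such copies is not stated in the sources at hand, so the level of Fabp5 (ENSMUSG00000027533, chromosome 3, 10012548 to 10016607, plus strand) carries that uncertainty.

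Slc27a2, which encodes FATP2, an acyl-CoA synthetase and transporter of long and very long chains in liver, held nearly all TPM of the transport role. Replicates 1, 2 and 3 held 669, 639 and 481 TPM under the WT label and 681, 757 and 633 TPM under the KO label. Only WT replicate 3 lay below all libraries labelled KO, and the groups overlapped. Group means were 596 ± 101 and 691 ± 62.5 TPM (SD, n = 3 each), and the difference was +0.22 ± 0.17 (SE) with a limma interval of -0.17 to +0.61. An opposite-strand gene, Gm26697, overlaps its exons and has no row among the deposited values, so its level is unknown. Slc27a2 (ENSMUSG00000027359, chromosome 2, 126552407 to 126588243, plus strand) stayed above 0 in all 16 alternatives run, from +0.07 to +0.31, and median-ratio scaling brought it to +0.10. Slc27a2, Acsl1 and Fabp5 were the 3 members higher in the library labelled KO in all 3 same-numbered pairs, a share of 3 in 10 beside 26.9% of all tested genes. After median-ratio scaling Fabp5 was the one member to do so, beside 10.8%.

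The other 2 transporters were low. Slc27a4 (FATP4), which has long-chain acyl-CoA synthetase activity, held 9.79, 8.29 and 7.69 TPM under the WT label and 10.9, 6.99 and 7.20 TPM under the KO label. Its difference was -0.05 ± 0.19 (SE), with a limma interval of -0.49 to +0.39. Slc27a1 (FATP1), the insulin-responsive transporter best known from muscle and fat, held 1.40, 1.74 and 2.07 TPM under the WT label and 1.44, 4.16 and 1.08 TPM under the KO label. Its highest library, KO replicate 2, stood apart from the other 5. The difference was +0.13 ± 0.33 (SE, limma interval -0.66 to +0.91), and -0.27 without that library. Slc27a4 (ENSMUSG00000059316) lies on chromosome 2, 29802634 to 29817522, and Slc27a1 (ENSMUSG00000031808) on chromosome 8, 71568882 to 71587302, both on the plus strand. Muscle markers Ckm, Myh6 and Myh4 and the adipocyte markers named above were at 0 throughout. Actc1, the other muscle marker listed, was at most 0.144 TPM.

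**Figure D2:**
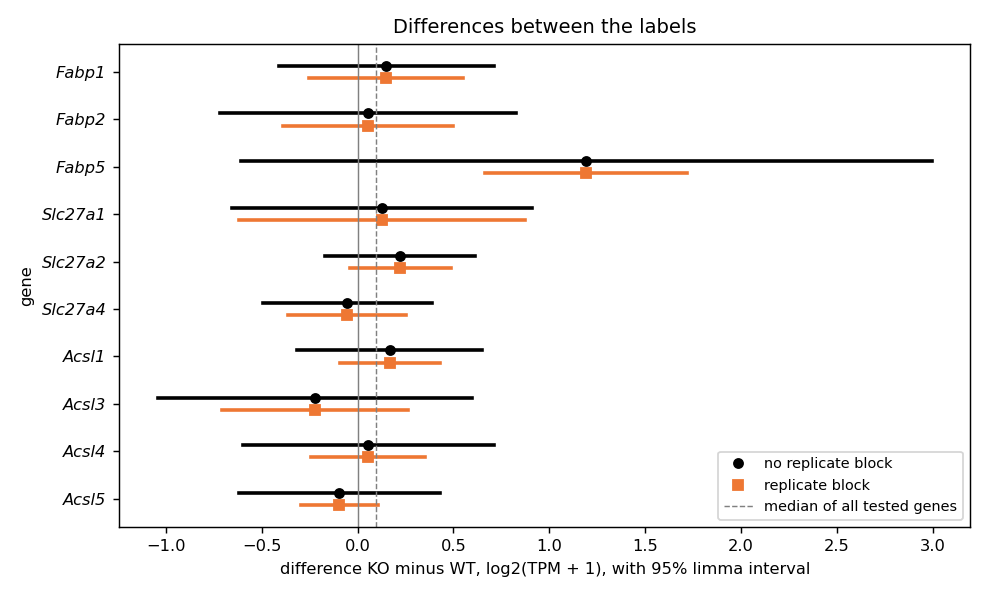
Difference between libraries labelled KO and WT on the log2(TPM + 1) scale for each gene, with 95% limma intervals, without (black circles) and with (orange squares) the replicate number as a block. The dashed line is the median of all tested genes, +0.09. Every interval without the block includes 0, and with the block that of Fabp5 (+0.67 to +1.72) does not.

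Acsl1, the main long-chain acyl-CoA synthetase of liver and a PPARα target, led the activation genes. Replicates 1, 2 and 3 held 277, 360 and 216 TPM under the WT label and 296, 363 and 285 TPM under the KO label. The value in replicate 2 was nearly equal in both labels. Group means were 284 ± 72.4 and 315 ± 42.5 TPM (SD, n = 3 each), and the difference was +0.17 ± 0.21 (SE) with a limma interval of -0.32 to +0.65. Acsl5, which lies on mitochondria and the endoplasmic reticulum and is linked to lipogenic conditions, was at 145, 221 and 149 TPM (WT) and 145, 203 and 133 TPM (KO), with overlapping groups. Its difference was -0.10 ± 0.22 (SE), with a limma interval of -0.62 to +0.43. Part of an Acsl5 exon is overlapped on the other strand by Zdhhc6, which was at 33.1 to 41.1 TPM, and whether counting used strand is not stated in the sources at hand.

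Acsl3, a synthetase of the endoplasmic reticulum and of nascent lipid droplets, held 10.02, 15.8 and 11.3 TPM under the WT label and 8.83, 18.5 and 6.43 TPM under the KO label. Both extremes were labelled KO, and the difference was -0.22 ± 0.35 (SE) with a limma interval of -1.04 to +0.60. Acsl4, which prefers arachidonic acid and is known for its part in ferroptosis, was at 10.5, 19.4 and 13.7 TPM (WT) and 10.1, 18.4 and 17.1 TPM (KO). Its difference was +0.06 ± 0.28 (SE), with a limma interval of -0.60 to +0.71, and it turned to -0.06 under median-ratio scaling. Acsl3 overlaps exons of the same-strand gene Utp14b, which was at 1.44 to 3.37 TPM, and Acsl1 those of the opposite-strand Gm45244, at 0.027 to 0.52 TPM. Acsl1 (ENSMUSG00000018796) lies on chromosome 8, 46471037 to 46536051, Acsl3 (ENSMUSG00000032883) on chromosome 1, 78657825 to 78707743, and Acsl5 (ENSMUSG00000024981) on chromosome 19, 55251938 to 55297720, all on the plus strand. Acsl4 (ENSMUSG00000031278) lies on chromosome X, 142317993 to 142390535, minus strand. The deposited rows of these 4 genes each join an assembled locus to the Ensembl gene.

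All 4 Acsl genes shared a pattern that the label did not carry. Each was highest in replicate 2 of both labels, as was Fabp5, giving 5 of 10 members beside 19.1% of all tested genes. With median-ratio scaling there were again 5 of 10, beside 15.1%: Slc27a2 joined, and Acsl4 left because replicate 3 labelled KO (17.4 scaled units) passed replicate 2 (16.7). Fabp1, Fabp2, Slc27a2 and Acsl1, 4 of 10, were lowest in replicate 3 of both labels beside 35.2% of tested genes, and 3 of 10 beside 15.8% after scaling. Fabp1 and Slc27a4 were highest in replicate 1 of both labels, 2 of 10 beside 21.2%. Among fatty acid synthesis genes, 8 of 9 tested were highest in replicate 2 of both labels, and the counts were 4 of 11 for the PPARα list, 1 of 8 for other binding genes, 1 of 4 for other uptake genes and 1 of 7 for other synthetases. For Fasn, which builds palmitate, the values were 157, 399 and 119 TPM (WT) and 166, 192 and 33.0 TPM (KO). The labels do not say what a replicate number shares (an animal, a day, a cage), so this is a description of the libraries and its source was not tested.

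**Figure D3:**
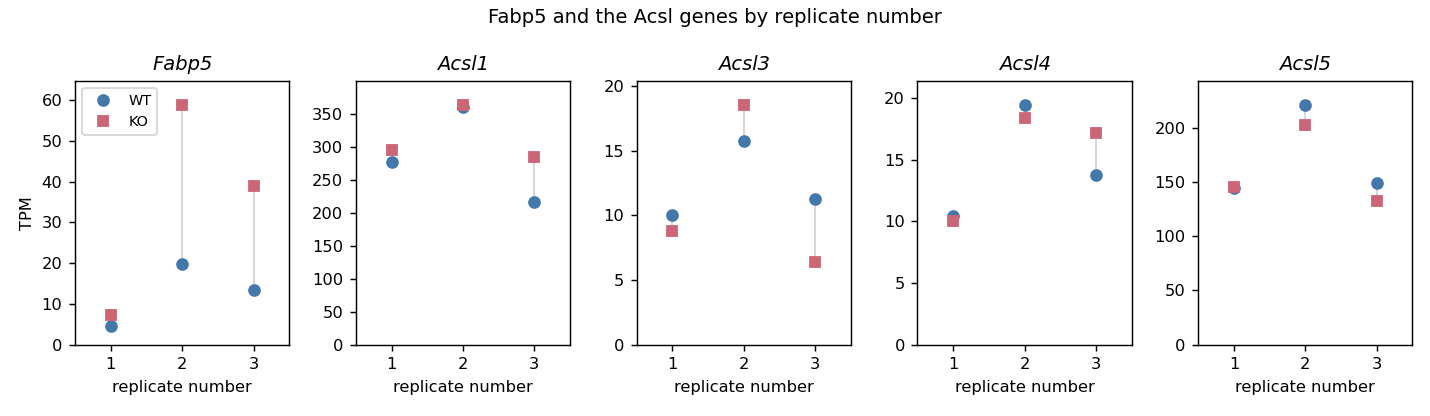
TPM of Fabp5, Acsl1, Acsl3, Acsl4 and Acsl5 by replicate number, with libraries labelled WT as blue circles and KO as red squares, a grey line joining libraries of the same number. Axes start at 0. For all 5 genes replicate 2 is the highest of its label, from 18.4 TPM for Acsl4 to 363 TPM for Acsl1 in the libraries labelled KO.

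The upstream sequences of the 4 Acsl genes are shown because all 4 were highest in the same replicate of each label before scaling. A link between sequence and that pattern was not tested. Windows are the 250 bases before a RefSeq start site, with the hypoxia response core in capitals, and the window of Acsl1 is the one at the start of its GENCODE gene. The window of Acsl5 lies inside its GENCODE gene, which starts at 55251938.
Acsl1 (chr8:46470787-46471036, plus strand): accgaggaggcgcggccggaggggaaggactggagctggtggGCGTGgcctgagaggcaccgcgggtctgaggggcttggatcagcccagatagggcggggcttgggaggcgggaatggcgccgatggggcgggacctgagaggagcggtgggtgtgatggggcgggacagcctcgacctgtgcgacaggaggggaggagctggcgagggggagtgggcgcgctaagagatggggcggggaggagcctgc
Acsl3 (chr1:78657575-78657824, plus strand): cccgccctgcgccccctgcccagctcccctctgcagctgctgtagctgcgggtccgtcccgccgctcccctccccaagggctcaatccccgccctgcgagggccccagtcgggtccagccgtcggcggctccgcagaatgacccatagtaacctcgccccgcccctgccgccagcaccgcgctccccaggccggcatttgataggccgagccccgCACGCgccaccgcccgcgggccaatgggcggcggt
Acsl4 (chrX:142390536-142390785, minus strand): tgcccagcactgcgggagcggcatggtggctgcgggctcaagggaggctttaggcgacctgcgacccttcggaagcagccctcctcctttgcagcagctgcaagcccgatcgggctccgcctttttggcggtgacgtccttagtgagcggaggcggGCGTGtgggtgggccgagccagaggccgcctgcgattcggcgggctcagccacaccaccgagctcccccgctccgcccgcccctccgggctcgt
Acsl5 (chr19:55253119-55253368, plus strand): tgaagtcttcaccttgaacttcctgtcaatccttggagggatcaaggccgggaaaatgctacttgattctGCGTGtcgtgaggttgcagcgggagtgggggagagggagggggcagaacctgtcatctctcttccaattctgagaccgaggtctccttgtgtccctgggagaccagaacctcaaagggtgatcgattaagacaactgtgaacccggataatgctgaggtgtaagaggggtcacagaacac

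Each of these 4 windows held 1 hypoxia response core, 208, 35, 94 and 180 bases before the start in Acsl1, Acsl3, Acsl4 and Acsl5. The second Acsl1 window held none. Of the members' 12 windows, 6 held a core, each of a different gene, beside 38.6% of all windows. Slc27a2 held a pair, in a window that GENCODE annotates as exon and that is therefore not printed. Slc27a1 held 3 matches in 1 of its 3 windows. Those that began 202 and 201 bases before the start overlap, as both strands of the same CACGTG. The G and C content was 72.0%, 75.6%, 70.8% and 52.8% in the 4 printed Acsl windows, against 42.8% for Fabp1 and 35.6% for Fabp2. The core itself contains CG, and the 38.6% covers windows of any G and C content, so it is not a matched background.

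No other gene of the pathway passed the test either. Of 50 genes in 5 related lists, 39 were tested, and 0 were called higher or lower by limma, with 0 at an unadjusted limma p below 0.05. With the replicate number as a block, 4 of the 39 had an unadjusted limma p below 0.05, beside 6.18% of all tested genes, and 0 were called. These were Acsm3, with a difference above 0, and Fasn, Gpam and Me1, with differences below 0. Their unadjusted limma p ran from 0.024 to 0.046, and the limma adjusted p of each was 0.724. With the block and median-ratio scaling there were again 4 of the 39, beside 4.51% of all tested genes, and 0 were called. Acsm3 was then at an unadjusted limma p of 0.105, and Acly, with a difference of -0.62, was at 0.046 (limma adjusted p = 0.944 for both). Among 10 other fatty acid and acyl-CoA binding genes, 8 were tested, with a median difference of +0.10 (-0.013 under median-ratio scaling). Scp2, a peroxisomal lipid carrier, was at 2625 ± 248 and 2741 ± 338 TPM, and Dbi, the acyl-CoA binding protein, at 1343 ± 130 and 1345 ± 243 TPM (SD, n = 3 each, WT then KO). Fabp4, the adipocyte binding protein, held 13.2, 10.1 and 13.2 TPM under the WT label and 18.5, 14.0 and 13.4 TPM under the KO label. Its groups did not overlap, nor did those of Acbd3 and Acbd6, 3 of 8 tested beside 9.08% of all tested genes, and each was higher under the KO label. After median-ratio scaling the groups of all 3 overlapped. The gap for Fabp4 was small, 13.2 to 13.4 TPM, and its limma p was 0.114 unadjusted. Acbd3, a Golgi protein with an acyl-CoA binding domain, was at 6.78 and 7.75 TPM.

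Of 6 other uptake genes, 4 were tested, with a median difference of +0.02 (-0.10 under median-ratio scaling). Cd36, the membrane fatty acid translocase, held 48.1, 41.5 and 19.6 TPM under the WT label and 69.0, 32.0 and 19.6 TPM under the KO label. Slc27a5, the FATP and bile acyl-CoA synthetase of liver, was at 372 ± 68.4 and 371 ± 73.4 TPM. Mfsd2a, a carrier of lysophospholipids, ran from 41.3 to 112 TPM in the libraries labelled WT and from 16.2 to 116 TPM in those labelled KO, and Cav1, encoding caveolin, ran from 1.31 to 1.78 TPM and from 0.877 to 2.86 TPM. Of 13 other acyl-CoA synthetases, 7 were tested, with a median difference of +0.02 (-0.10 under that scaling). Acsm1, a medium-chain synthetase of mitochondria, was at 138 ± 10.1 and 137 ± 12.5 TPM, Acsm3 at 65.8 ± 13.7 and 79.2 ± 9.62 TPM, and Acss2, which activates acetate, at 49.7, 179 and 74.8 TPM against 45.9, 192 and 34.4 TPM.

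All 11 genes of the PPARα list (the receptor and classical targets outside the members) were tested, with a median difference of +0.11 and 6 above 0, and the median was -0.012 under median-ratio scaling. Cyp4a10, a fatty acid ω-hydroxylase, was at 74.5, 82.3 and 17.1 TPM against 226, 72.8 and 20.8 TPM, and Pdk4 at 2.19 ± 1.27 and 1.44 ± 0.214 TPM. The 9 tested genes of fatty acid synthesis all had a difference below 0, with a median of -0.49 (-0.62 under median-ratio scaling) beside 74.5% of tested genes above 0, and none was called. This direction was known from earlier results of these data. KO replicate 3 was the lowest of the 6 libraries for all 9. In the replicate 1 pair, Srebf1 and Acly were lower in the library labelled KO and the other tested synthesis genes were higher. Scd1, the stearoyl-CoA desaturase, was at 525, 5413 and 1406 TPM against 1332, 3296 and 181 TPM. Thrsp, a regulator of lipogenesis, ran from 343 to 1426 TPM and from 94.8 to 1002 TPM, and Gpam, the glycerol acyltransferase, from 80.3 to 171 TPM and from 48.6 to 120 TPM. The groups of all 9 overlapped.

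**Figure D4:**
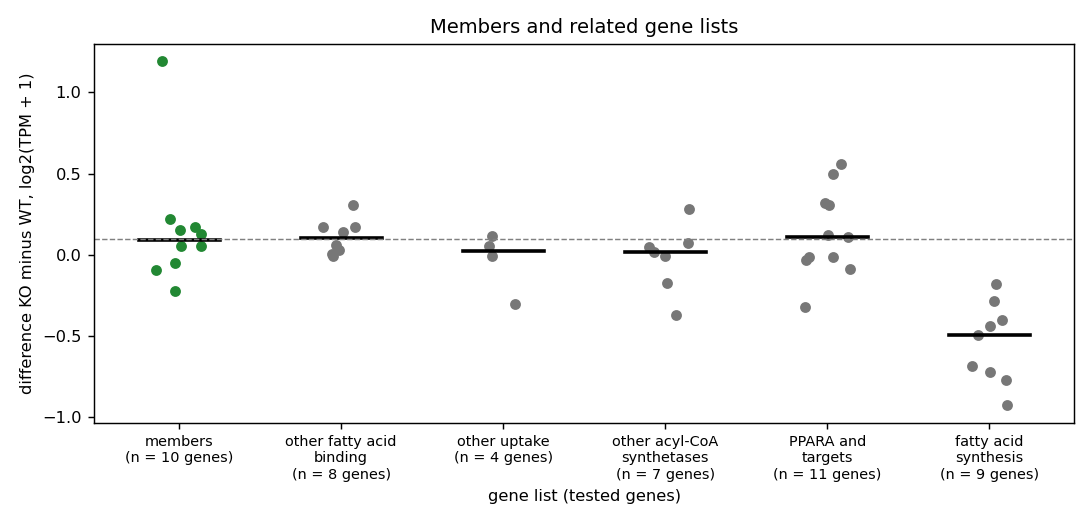
Difference between libraries labelled KO and WT on the log2(TPM + 1) scale for the tested genes of each list, 1 point a gene, with the list median as a black bar and the median of all tested genes, +0.09, as a dashed line. Fabp5 at +1.19 stands highest among the members, and all 9 fatty acid synthesis genes lie below 0, with a median of -0.49. KO replicate 3 was the lowest library for each of these 9.

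Genes with the most similar profile over the 6 libraries were found by the root mean square difference of log2(TPM + 1), each gene centred on its own mean, among 6646 genes with a mean of at least 5 TPM. For Fabp1 they were Vkorc1l1 (0.058), Copz2 (0.064) and Pcx (0.065), beside a median over all candidates of 0.257. For Slc27a2 they were Xrn2 (0.038), Tap2 (0.042) and Cox5b (0.043), beside 0.193. For Acsl1 they were Chd3 (0.042), Lrrc58 (0.051) and Cyp3a13 (0.055), beside 0.253. For Fabp5 the nearest were farther off: Eif4ebp3 (0.56), Phlda1 (0.57) and Rgs3 (0.64), beside 1.21. Phlda1 held 17.2, 25.9 and 22.1 TPM under the WT label and 21.0, 66.2 and 103.7 TPM under the KO label, and Eif4ebp3, which encodes a translation repressor, held 9.51, 33.2 and 35.0 TPM against 10.1, 48.4 and 99.5 TPM. As with Fabp5, replicate 1 was the lowest of each label for both, whereas Rgs3 was lowest in replicate 3 under the WT label. Under the KO label Eif4ebp3, Phlda1 and Rgs3 were each highest in replicate 3, whereas Fabp5 was highest in replicate 2. Eif4ebp3 was highest in replicate 3 under the WT label too, where Fabp5 was highest in replicate 2. These are descriptions over 6 libraries, with no test.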

How the data were processed

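RNA-seq of liver was used from 6 libraries, 3 per label. Per the labels' protocols, TRIzol was used for RNA extraction and an NEB kit for the libraries. The authors deposited TPM per gene, and each library sums to 1000000. The submitters' processing notes name HISAT2, fastp, DESeq2, limma and featureCounts, and the build mm10, without versions or roles. The depth behind the values is unknown, and no count model or counting interval was used. Identifiers were named with GENCODE M21 (51492 of 54323 Ensembl identifiers).

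The 11440 genes that reached 1 TPM in 3 or more libraries were fitted together as log2(TPM + 1), by limma 3.58.1 (R 4.3.3) with its trend option. Tests were two-sided and p-values Benjamini-Hochberg adjusted. This scale understates fold changes of low genes. The limma step was tested on simulated data. Near copies were found with BLAST 2.17.0.

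The members and lists were chosen with earlier results of these data known. Named genes are the members, Epas1, the 2 most abundant tested genes and the 2 with the smallest p of each related list, and the 3 most similar genes of the lead member of each role and of the widest-ranging member. Some genes that this rule names are not reported here. Cd36, Me1, Srebf1, Acly, Spp1, Acbd6, Zdhhc6, Gm45244, Gm26697, Utp14b, Gm6166 and the counts by replicate number were chosen after values were seen.

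To check whether replicate numbers pair the libraries, each library was expressed as its deviation from the mean of its label. Libraries with equal numbers correlated at 0.16, 0.41 and 0.38, and other pairs across labels at -0.37 to 0.03. For each gene the deviations sum to 0 within a label, so these correlations are not independent of one another. With 3 libraries per label few matchings are possible, so the check is weak. By this check, and not by any label, the numbers may pair the libraries, and a replicate block was run as an alternative. Other alternatives changed the pseudocount, filter, scaling or trend, or left out 1 library. Spearman correlations between libraries were 0.945 to 0.978 and no pair shared more than 0.157% of values, so each was used as 1 replicate.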

Additional observations from a re-analysis of the deposited data

How the results depend on the processing

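No member and no related gene was called in any of the 16 alternatives run. Fabp5 and Slc27a2 kept a difference above 0 in all 16, and the adjusted limma p of Fabp5 ran from 0.724 to 0.9999. The difference of Fabp2 was -0.070 under median-ratio scaling, -0.014 under quantile normalization, -0.014 after recomputing TPM with the 20 top genes and the mitochondrial genes removed and -0.070 when that scaling was joined with the replicate block. That of Acsl4 was -0.060, -0.029, -0.0066 and -0.060 under the same 4 settings. The number of genes called over the transcriptome was 1, and it was 0 with a pseudocount of 5, with no filter, with a filter of 5 TPM, under quantile normalization, under the replicate block and under that block joined with median-ratio scaling. Genes at an unadjusted p below 0.05 numbered 360 without and 707 with the block.

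Leaving out 1 library at a time gave 0 to 2 called genes (2 without WT replicate 2) and moved the log2 difference over these ranges: Fabp1 -0.024 to +0.38, Fabp2 -0.23 to +0.39, Fabp5 +0.62 to +2.04, Slc27a1 -0.27 to +0.38, Slc27a2 +0.07 to +0.31, Slc27a4 -0.24 to +0.050, Acsl1 -0.01 to +0.35, Acsl3 -0.62 to +0.077, Acsl4 -0.14 to +0.31 and Acsl5 -0.28 to +0.10. The members' median ran from +0.01 to +0.26. Fabp1, Acsl1, Acsl3, Acsl5, Slc27a1 and Slc27a4 changed sign only in this way. Slc27a1 did not pass the filter of 5 TPM and has no value there.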
